A study of Rattus norvegicus with 9 samples.

Results

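The genes described here encode the proteins of the nuclear pore and the carriers that move cargo through it, measured by RNA-seq in rat primary aortic vascular smooth muscle cells. They were chosen by gene symbol: every nucleoporin named Nup with a number, every importin (Kpna, Kpnb and Ipo genes), every exportin (Xpo genes), and Aaas, Ndc1, Tpr, Rae1, Ranbp2, Cse1l, Ran and Rcc1. The rule found 51 of the 32623 genes in the deposited table, under 50 symbols, because Nup214 has 2 rows (ENSRNOG00000023393 and ENSRNOG00000047244). Of these, 47 had a level of at least 1 FPKM (counted fragments scaled by exonic length and library total) in at least 3 of the 9 libraries and were tested, among 11197 tested genes. Of the 47, 46 were at or above that level in all 9 libraries, and the exception was Kpna5, whose lowest deposited level was 0.53 FPKM. Seh1l is named by the rule, but no gene in the deposited table was matched under that symbol, so it was not analysed here.

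The study asked how PTUPB, a dual inhibitor of cyclooxygenase-2 and soluble epoxide hydrolase, acts on cells stimulated with PDGF-BB, the growth factor that drives these cells to divide and migrate. There were 3 libraries of cells given PTUPB (0.5 µM) 2 h before PDGF-BB, 3 of cells given PDGF-BB alone for 24 h, and 3 of Control cells given the solvent DMSO. PDGF-BB is listed at 10 ng/mL in the sample labels and at 20 ng/mL in the series design. All cells were wild type, of passages 4 to 8, had been without serum for 12 h and were treated in 2% serum. Whether replicate libraries stem from different cultures or animals is not stated in the labels, and every p-value below reflects library-to-library spread alone, which may be technical.

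The nuclear pore is a ring of nucleoporins set in the nuclear envelope: outer rings built from the Y complex, an inner ring, a channel lined with flexible phenylalanine-glycine repeats, filaments on the cytoplasmic side and a basket on the nuclear side. Proteins with a nuclear localization signal are bound by an importin alpha, which is carried through the pore by importin beta, while exportins carry cargo outwards. The GTPase Ran sets the direction: loaded with GTP in the nucleus by its exchange factor Rcc1, it strips cargo from importins and loads it onto exportins. In dividing cells the pore and the lamina are taken apart and rebuilt, and Ran, importins and several nucleoporins also act on the spindle.

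Counts summed to 12729187 to 16911050 per library. The libraries held smooth muscle markers at a summed level of 2180 to 2450 FPKM with PDGF-BB+PTUPB, 2080 to 2460 with PDGF-BB and 1720 to 2420 in Control (6 markers, 5 tested, Acta2 and Tagln the leading ones, Myocd below the filter). The sum rests largely on Tagln: Acta2 and Myh11 fell with PDGF-BB against Control, by 0.53 and 1.04 on the log2 scale (edgeR adjusted p = 0.00898 and 0.000326), and Myh11 rose with PTUPB against PDGF-BB alone (0.54, edgeR adjusted p = 0.021). Endothelial markers summed to at most 0.337 FPKM in any library, with Cdh5, Tie1 and Kdr at 0. The 5 macrophage markers summed to 21.5 to 22.3 FPKM with PDGF-BB+PTUPB, 16.3 to 18.1 with PDGF-BB and 16.0 to 24.3 in Control. Most of that was Cd14, which rose with PTUPB against PDGF-BB (0.47, edgeR adjusted p = 0.0304), and the defining gene Ptprc was at 0. In Control replicate 2 and PDGF-BB replicate 3 the deviations from the other libraries of the group ran against exonic length (Spearman rho across genes -0.389 and -0.381), so that long transcripts were low in them. Control replicate 1 and PDGF-BB replicate 2 deviated the other way by almost as much (0.348 and 0.35), and the remaining 5 libraries lay between -0.128 and 0.199. Calls of the 47 genes that change without Control replicate 2 and PDGF-BB replicate 3, called below the libraries that stood apart, are given as such.

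With PDGF-BB, genes of the outer and inner rings, Ndc1, Aaas, Ran with its exchange factor and 5 carriers were higher than in Control, while most other carriers and the basket did not pass the test. In PDGF-BB cells 21 of the 47 tested genes were higher than in Control and 1 was lower. These are 44.7% and 2.1% of the 47, whereas 17.3% of all tested genes were called higher and 15.8% lower (edgeR's quasi-likelihood test, p adjusted by Benjamini-Hochberg over all genes tested, threshold 0.05). The median log2 fold change was 0.095 over the 47 and -0.017 over all genes tested, and that of the 47 was 0.06 without Control replicate 2 and 0.21 without PDGF-BB replicate 3. Without Control replicate 2 and PDGF-BB replicate 3, 22 were higher and 3 lower (both rows of Nup214 among the 3), beside 18.6% and 19.5% of all genes. With scaling to library totals alone, 2410 genes were higher and 1350 lower, in place of 1942 and 1772, and 22 and 1 of the 47 were called. The summed level of 5 adventitial fibroblast markers moved with the groups. It was 452 to 571 FPKM with PDGF-BB+PTUPB, 246 to 304 with PDGF-BB and 597 to 644 in Control. Most of that was Scara5 and Pdgfra, at log2 fold changes of -1.44 and -0.97 with PDGF-BB against Control (edgeR adjusted p = 1.44e-05 and 0.000449). Col14a1 was also called lower. Pi16 was not called with PDGF-BB against Control (-0.17, edgeR adjusted p = 0.461) or with PTUPB against PDGF-BB (0.16, edgeR adjusted p = 0.576), and Dpt was below the filter. The proliferation gene Mki67 averaged 7.45 ± 0.475 FPKM with PDGF-BB+PTUPB, 13.1 ± 6.67 with PDGF-BB and 3.02 ± 1.26 in Control (SD, n = 3 each). Its PDGF-BB libraries stood at 15.0, 18.7 and 5.75 FPKM, replicate 3 below every PDGF-BB+PTUPB library. The exonic length of Mki67 is 9880 bases, and long transcripts were low in PDGF-BB replicate 3 and Control replicate 2. Whether length affected its levels was not tested. Mki67 rose with PDGF-BB against Control (2.13, edgeR adjusted p = 0.00299) and was not called with PTUPB against PDGF-BB (-0.82, edgeR adjusted p = 0.174). Without Control replicate 2 and PDGF-BB replicate 3 that value was -1.18 (edgeR adjusted p = 0.000187). The part of the fibroblast markers or of Mki67 in the results below was not tested. In such bulk libraries fewer cells of a type and less RNA per cell cannot be told apart.

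**Figure D1:**
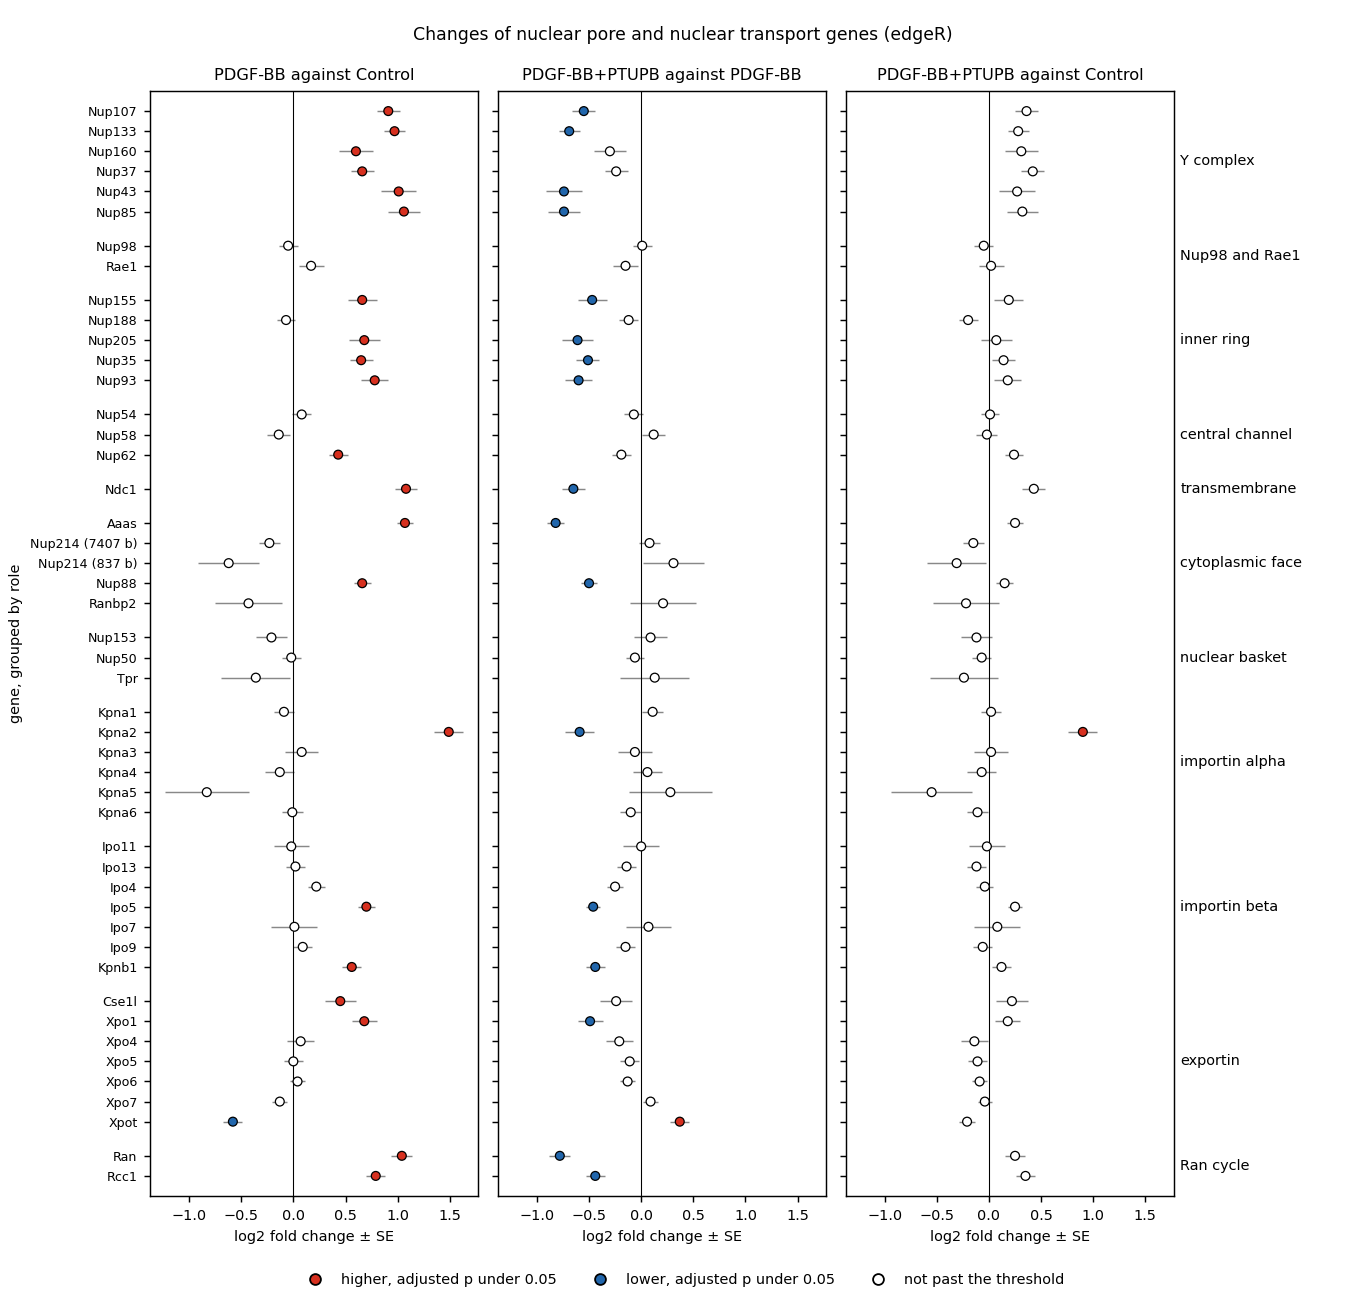
Log2 fold change (horizontal axis, point, with its SE as a bar) of the 47 tested genes, grouped by role down the page, in 3 comparisons. Filled points passed an edgeR adjusted p of 0.05 (red higher, blue lower): with PDGF-BB against Control all 6 Y complex genes plotted are red and the nuclear basket genes are open, and with PDGF-BB+PTUPB against Control Kpna2 alone is filled.

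The Y complex is the coat that forms the outer rings. Of the genes the symbol rule found, 6 were assigned to it here, with Nup98 placed in another role group. All 6 rose with PDGF-BB, by 0.60 to 1.06 on the log2 scale (median 0.94). Nup133, a stem subunit of the Y, stood at 6.57, 6.70 and 6.83 FPKM in the 3 PDGF-BB+PTUPB libraries, 10.7, 9.91 and 11.9 in the PDGF-BB libraries and 6.01, 5.02 and 5.57 in the Control libraries (levels here and below are TMM-scaled FPKM, replicates 1 to 3 in order). All PDGF-BB libraries lay above all others, and the log2 fold change against Control was 0.97 ± 0.10 (SE; edgeR adjusted p = 7.6e-05). Nup107, which joins Nup133 in the stem, stood at 9.81, 9.90 and 9.12 FPKM with PDGF-BB+PTUPB, 13.6, 14.7 and 14.0 with PDGF-BB and 7.93, 6.14 and 8.41 in Control. Here the 3 groups did not overlap at all, and the log2 fold change with PDGF-BB against Control was 0.91 ± 0.11 (edgeR adjusted p = 0.000242). Among these 6 the smallest rise was that of Nup160 (0.60 ± 0.16, edgeR adjusted p = 0.0135) and the greatest that of Nup85 (1.06 ± 0.15, edgeR adjusted p = 0.000505). Nup98 and its partner Rae1, which take part in mRNA export, did not pass the test, with log2 fold changes of -0.05 (95% interval -0.25 to 0.14) and 0.17 (-0.09 to 0.44). The Nup98 gene also encodes the Y complex protein Nup96 through a common precursor, so its row counts transcripts of both. Outside the symbol rule, Sec13, a Y complex subunit that is also part of the COPII coat, rose by 0.52 ± 0.09 (edgeR adjusted p = 0.00142). Ahctf1, which encodes the Y complex partner ELYS, was at -0.47 ± 0.20 (edgeR adjusted p = 0.0966), and was called lower with Control replicate 2 and PDGF-BB replicate 3 both left out (-0.38, edgeR adjusted p = 0.007). Ahctf1 is named here with its values known.

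The inner ring, which ties the outer rings to the membrane and anchors the channel proteins, followed the same direction in 4 of its 5 genes. Nup93, Nup205, Nup155 and Nup35 rose with PDGF-BB by 0.65 to 0.78 on the log2 scale, whereas Nup188, which pairs with Nup93 as Nup205 does, had a log2 fold change of -0.07 (95% interval -0.27 to 0.12). The membrane nucleoporin Ndc1 stood at 10.7, 12.5 and 12.2 FPKM with PDGF-BB+PTUPB, 18.5, 20.2 and 16.9 with PDGF-BB and 9.85, 7.65 and 8.77 in Control. Its 3 groups did not overlap, and it rose with PDGF-BB by 1.08 ± 0.11 on the log2 scale (edgeR adjusted p = 9.21e-05). Aaas encodes aladin, the nucleoporin that Ndc1 holds at the pore and that is mutated in triple A syndrome in humans. Its levels were 10.7, 10.7 and 10.8 FPKM with PDGF-BB+PTUPB, 19.7, 18.0 and 19.0 with PDGF-BB and 9.20, 8.60 and 9.25 in Control. The libraries of each group lay close together and the groups were apart, and Aaas had the smallest adjusted p of the 47 in this comparison (log2 fold change 1.07 ± 0.08, 2.10-fold, edgeR adjusted p = 1.62e-05). Another membrane nucleoporin, Nup210, was below the filter, with 44, 65 and 54 counts with PDGF-BB+PTUPB, 40, 49 and 38 with PDGF-BB and 35, 38 and 31 in Control. Nup210l had 1 count over all libraries, which is under the floor of 3 counts per library (0.0314 to 0.0417 FPKM).

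Of the channel proteins with phenylalanine-glycine repeats, Nup62 rose with PDGF-BB and its complex partners Nup54 and Nup58 did not pass the test. Nup62 stood at 24.1, 25.8 and 25.7 FPKM with PDGF-BB+PTUPB, 27.6, 26.7 and 31.8 with PDGF-BB and 22.2, 21.2 and 20.7 in Control. The groups were apart but the step was small (log2 fold change 0.43 ± 0.09 against Control, edgeR adjusted p = 0.00425). Nup54 and Nup58 had log2 fold changes of 0.08 (95% interval -0.11 to 0.27) and -0.14 (-0.37 to 0.10), and Nup62cl had 0 counts in every library (3 counts would be 0.217 to 0.288 FPKM).

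On the cytoplasmic face Nup88, which binds Nup214 where mRNA and export complexes leave the pore, stood at 24.4, 27.0 and 28.4 FPKM with PDGF-BB+PTUPB, 40.1, 36.4 and 36.7 with PDGF-BB and 22.7, 24.7 and 24.4 in Control. Every PDGF-BB library exceeded every other library (log2 fold change against Control 0.66 ± 0.08, edgeR adjusted p = 0.000292). Neither row of Nup214 passed the test, at -0.23 ± 0.10 for the 7407-base row and -0.62 ± 0.29 for the 837-base row (edgeR adjusted p = 0.108 and 0.124). Both became calls lower when Control replicate 2 was left out (-0.34 and -0.87, edgeR adjusted p = 0.0129 and 0.0197). That makes 3 rows lower in place of 1, with both rows of this 1 gene among them. Ranbp2, the main protein of the cytoplasmic filaments and a SUMO ligase, stood at 26.4, 18.6 and 21.0 FPKM with PDGF-BB+PTUPB, 22.5, 25.8 and 8.87 with PDGF-BB and 30.4, 20.9 and 25.5 in Control. PDGF-BB replicate 3 lay far below the other 2 libraries of its group, at 0.368 of their mean, and the log2 fold change of -0.43 had a 95% interval of -1.13 to 0.28.

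The basket proteins Nup153, Nup50 and Tpr did not pass the test with PDGF-BB. Tpr, the coiled-coil protein of the basket fibres, stood at 19.9, 14.0 and 15.0 FPKM with PDGF-BB+PTUPB, 16.8, 20.9 and 7.07 with PDGF-BB and 24.2, 14.3 and 19.1 in Control. The groups overlapped, PDGF-BB replicate 3 was again the lowest library (0.376 of the mean of the other 2), and the log2 fold change of -0.36 had a 95% interval of -1.10 to 0.37, wide enough to include changes of the size seen in the Y complex with the opposite sign. Nup50 was measured more closely (-0.02, 95% interval -0.22 to 0.18). The 21 genes that rose had exonic lengths of 1104 to 6230 bases (median 2690), against 837 to 10277 (median 4676) for the 25 that did not pass the test. With exonic length as an offset in the fit, 24 of the 47 genes were higher and 1 lower, and the median over the 47 was 0.22. Over all 11197 tested genes that fit called 2011 higher and 1598 lower, in place of 1942 and 1772. Whether length affected which genes were called was not tested.

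Among the carriers, 1 of 6 tested importin alphas, 2 of 7 importins of the beta family and 2 of 7 exportins were called higher with PDGF-BB, and 1 exportin lower. These counts stand beside 17.3% of all tested genes called higher and 15.8% lower. Kpna2, the importin alpha associated with dividing cells, had the largest fold change of all 47: its levels were 63.8, 68.6 and 64.2 FPKM with PDGF-BB+PTUPB, 104.6, 102 and 89.7 with PDGF-BB and 42.2, 27.2 and 35.9 in Control. The 3 groups were wholly apart, and the rise with PDGF-BB was 1.49 ± 0.14 on the log2 scale (2.81-fold, edgeR adjusted p = 4.9e-05). The other 5 tested importin alphas, Kpna1, Kpna3, Kpna4, Kpna5 and Kpna6, had log2 fold changes of -0.83 to 0.08 and none passed the test. The embryonic importin alpha Kpna7 had 0 counts in every library (3 counts would be 0.118 to 0.157 FPKM). Kpna2 reads may be shared with LOC100359600, annotated as karyopherin alpha 2-like, so its level is uncertain to that extent. That gene was at 9.51, 14.1 and 11.9 FPKM with PDGF-BB+PTUPB, 17.9, 19.2 and 17.2 with PDGF-BB and 8.44, 5.97 and 6.92 in Control, and it rose with PDGF-BB by 1.35 ± 0.16 on the log2 scale (edgeR adjusted p = 0.000185).

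Since FPKM is scaled by transcript length, the 6 importin alphas can be set against each other. Kpna2 made up 39.0%, 41.6% and 38.6% of their summed level in the PDGF-BB+PTUPB libraries, 50.1%, 47.8% and 52.2% in the PDGF-BB libraries and 26.7%, 22.8% and 26.0% in the Control libraries. The groups did not overlap. Kpna4, the leading importin alpha in Control by its mean, held 23.1% ± 0.767 with PDGF-BB+PTUPB, 18.4% ± 1.51 with PDGF-BB and 28.9% ± 0.881 in Control (SD, n = 3 each). These are shares of a sum in which Kpna2 itself moved, so a smaller share of Kpna4 is not a fall in its level, which had a log2 fold change of -0.13 (95% interval -0.45 to 0.19) with PDGF-BB against Control.

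**Figure D2:**
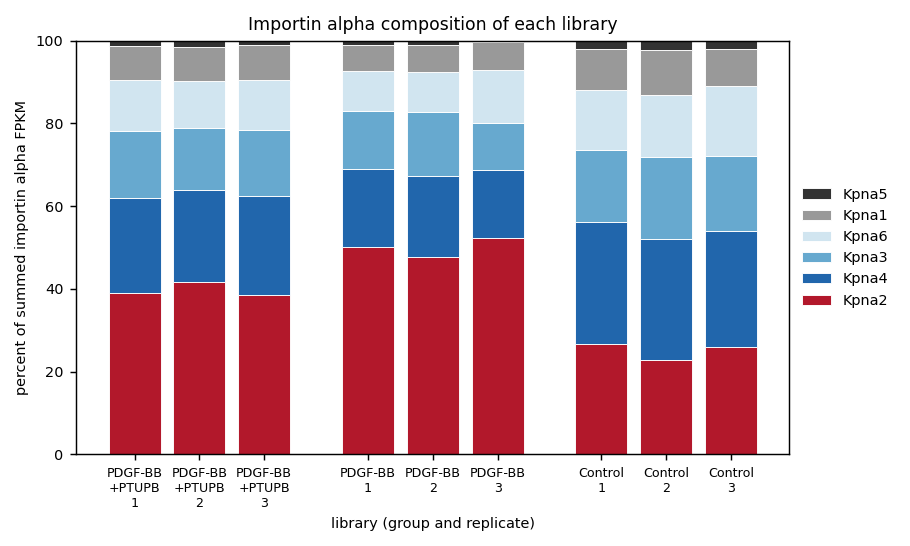
Share of the summed FPKM of Kpna1 to Kpna6 (vertical axis, percent) held by each importin alpha in each of the 9 libraries (bars). The red Kpna2 segment is 38.6% to 41.6% of the PDGF-BB+PTUPB bars, 47.8% to 52.2% of the PDGF-BB bars and 22.8% to 26.7% of the Control bars.

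Of the 7 importins of the beta family, Kpnb1 and Ipo5 rose and the other 5 did not pass the test. Kpnb1, the partner of the importin alphas, stood at 76.7, 83.2 and 81.6 FPKM with PDGF-BB+PTUPB, 108.5, 109.8 and 108.3 with PDGF-BB and 81.7, 65.2 and 74.6 in Control. The PDGF-BB libraries were tightly grouped above all others (log2 fold change against Control 0.56 ± 0.09, edgeR adjusted p = 0.000923). Ipo5, which imports ribosomal proteins and histones, stood at 84.6, 96.4 and 96.7 FPKM with PDGF-BB+PTUPB, 120.7, 129 and 131 with PDGF-BB and 79.1, 76.1 and 78.8 in Control. Its groups were apart, with a rise of 0.70 ± 0.08 on the log2 scale (edgeR adjusted p = 0.000103). Ipo4, Ipo7, Ipo9, Ipo11 and Ipo13 had log2 fold changes of -0.02 to 0.22, and Ipo7 was at 0.497 of the mean of the other 2 libraries in PDGF-BB replicate 3. When that library was left out Ipo7 and Kpna3 became calls higher (0.27 and 0.28, edgeR adjusted p = 0.0387 and 0.0472), and with Control replicate 2 left out as well Ipo7 was still called (0.21, edgeR adjusted p = 0.0447). Another row is annotated as similar to importin 11 and may share reads with Ipo11, whose level is uncertain to that extent.

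Of the 7 exportins, 2 were called higher and 1 lower with PDGF-BB, beside 17.3% and 15.8% of all tested genes. Xpo1, the receptor for the leucine-rich export signal, stood at 35.0, 35.6 and 34.6 FPKM with PDGF-BB+PTUPB, 50.9, 57.2 and 40.1 with PDGF-BB and 33.2, 27.4 and 32.2 in Control. All PDGF-BB libraries were above the rest, replicate 3 by the least, and the rise against Control was 0.68 ± 0.12 on the log2 scale (edgeR adjusted p = 0.0023). Xpot, the exportin of mature tRNA, was the single gene of the 47 called lower with PDGF-BB. It stood at 22.1, 23.2 and 23.4 FPKM with PDGF-BB+PTUPB, 17.1, 18.2 and 17.9 with PDGF-BB and 29.6, 25.1 and 24.9 in Control. The groups were apart, and Xpot fell by 0.58 on the log2 scale with an SE of 0.09 (edgeR adjusted p = 0.000712).

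Cse1l, which returns importin alpha to the cytoplasm, was the weakest call. Its levels were 32.2, 28.7 and 29.5 FPKM with PDGF-BB+PTUPB, 37.8, 40.5 and 28.1 with PDGF-BB and 29.8, 21.0 and 26.9 in Control. PDGF-BB replicate 3 lay below Control replicate 1, and the rise was 0.45 ± 0.15 on the log2 scale (edgeR adjusted p = 0.0428). Leaving out Control replicate 2 or 3, PDGF-BB replicate 1 or 2, or any PDGF-BB+PTUPB replicate ended this call (0.32 to 0.48, edgeR adjusted p = 0.0577 to 0.134), as did a fit of only the 2 groups compared and the fit with a replicate block. With both libraries that stood apart left out the log2 fold change was 0.47 (edgeR adjusted p = 0.00137). Xpo4, Xpo5, Xpo6 and Xpo7, the exportins of other protein cargo, pre-miRNA and actin complexes, had log2 fold changes of -0.13 to 0.07.

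Both genes of the Ran cycle in the group rose. Ran was the highest of the 47 genes in Control, at a mean of 216 ± 9.29 FPKM, followed by Ipo5 at 78.0 ± 1.65 and Kpnb1 at 73.8 ± 8.24, whose Control libraries overlapped each other (SD, n = 3 each). In single libraries Ran stood at 244, 254 and 276 FPKM with PDGF-BB+PTUPB, 416, 401 and 514 with PDGF-BB and 225, 218 and 206 in Control. No group overlapped another, and the rise with PDGF-BB was 1.04 ± 0.10 on the log2 scale (edgeR adjusted p = 6.59e-05). Rcc1, the chromatin-bound exchange factor, stood at 8.84, 8.93 and 9.45 FPKM with PDGF-BB+PTUPB, 11.9, 11.8 and 13.2 with PDGF-BB and 6.49, 7.33 and 7.50 in Control, again with the groups apart (0.79 ± 0.09, edgeR adjusted p = 0.000177).

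**Figure D3:**
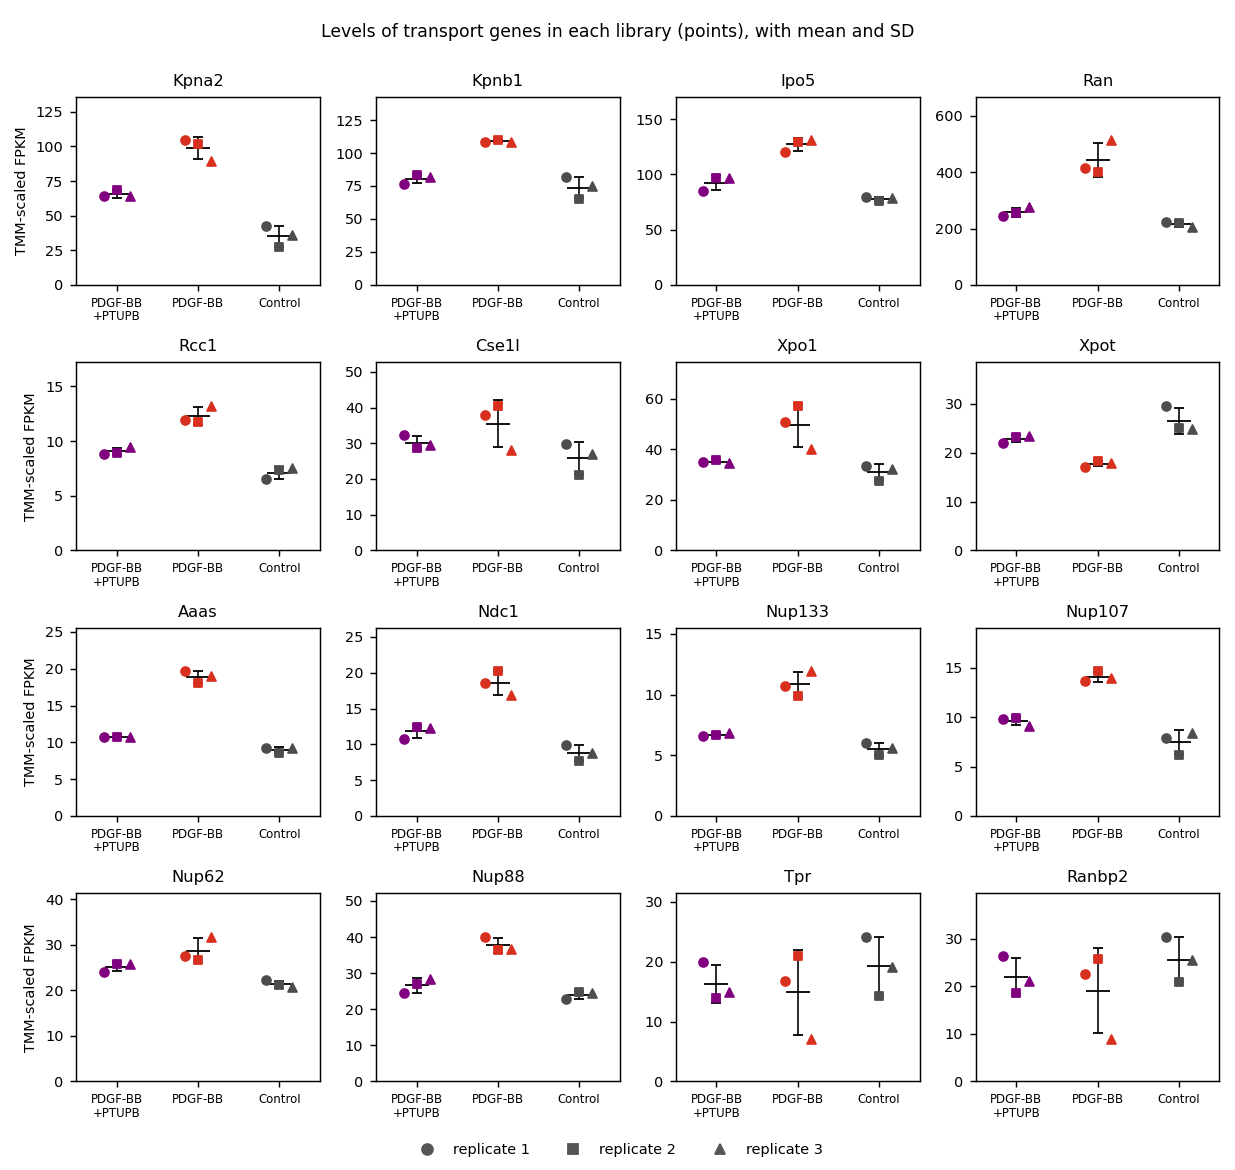
TMM-scaled FPKM (vertical axes, starting at 0) of transport genes in the 3 libraries of each group (points, shape by replicate), with the mean and SD as lines. PDGF-BB points lie highest for Kpna2 (89.7 to 105) and Ran (401 to 514) and lowest for Xpot (17.1 to 18.2), and PDGF-BB replicate 3 lies well below its group for Tpr (7.07) and Ranbp2 (8.87).

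The promoters of 4 of these genes are shown because they differ in the sequence elements associated with expression in dividing cells: Kpna2, whose fold change was the largest, Ran, the exportin Xpo1, and Aaas. Each is the 250 bases before the gene's start in RefSeq (assembly GRCr8), written 5′ to 3′ on the gene's own strand, and capitals mark matches on either strand to CCAAT, to TTTGAA (the letters of the cell cycle homology region) or to the E2F letters TTTCCCGC, TTTGGCGC, TTTCGCGC and TTTGCCGC. They lie at chr10:92445842-92446091 (Kpna2, minus strand), chr12:33314291-33314540 (Ran, minus strand), chr14:101434200-101434449 (Xpo1, plus strand) and chr7:135362546-135362795 (Aaas, minus strand).
Kpna2: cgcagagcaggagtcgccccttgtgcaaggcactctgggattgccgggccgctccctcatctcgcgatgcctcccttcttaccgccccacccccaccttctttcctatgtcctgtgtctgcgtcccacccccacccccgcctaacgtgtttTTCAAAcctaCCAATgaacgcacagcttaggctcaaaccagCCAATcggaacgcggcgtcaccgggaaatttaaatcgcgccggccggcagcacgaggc
Ran: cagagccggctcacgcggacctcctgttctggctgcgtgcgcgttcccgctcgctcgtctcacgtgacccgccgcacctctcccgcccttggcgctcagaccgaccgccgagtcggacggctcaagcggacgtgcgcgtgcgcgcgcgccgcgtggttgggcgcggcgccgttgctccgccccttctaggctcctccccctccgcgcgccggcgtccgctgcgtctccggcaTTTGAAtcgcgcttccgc
Xpo1: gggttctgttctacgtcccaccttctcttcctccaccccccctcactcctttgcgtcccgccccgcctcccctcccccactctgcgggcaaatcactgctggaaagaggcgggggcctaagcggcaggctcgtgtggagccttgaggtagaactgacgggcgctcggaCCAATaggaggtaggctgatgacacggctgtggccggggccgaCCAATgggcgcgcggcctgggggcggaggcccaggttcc
Aaas: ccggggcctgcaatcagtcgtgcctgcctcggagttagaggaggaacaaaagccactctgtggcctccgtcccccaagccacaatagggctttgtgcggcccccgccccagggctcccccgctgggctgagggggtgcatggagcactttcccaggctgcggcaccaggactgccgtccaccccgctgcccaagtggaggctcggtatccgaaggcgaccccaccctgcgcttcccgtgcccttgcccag

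Counted from the gene's start, Kpna2 held TTTGAA on the opposite strand at -99 to -94 and CCAAT at -89 to -85 and -58 to -54, Ran held TTTGAA at -18 to -13, and Xpo1 held CCAAT at -82 to -78 and -39 to -35. Aaas held none of these letters in the window. Promoters were matched for 43 of the 50 symbols. TTTGAA was found in 6 of the 18 genes with a promoter that rose with PDGF-BB (33.3%) and in 4 of the 21 that did not pass the test (19.0%), beside 9.84% of all tested genes with a promoter and 16.0% of all 27457 promoters. CCAAT was found in 44.4% and 47.6% of the same 2 sets, beside 36.2% of tested genes and 34.3% of all promoters, and an E2F match in 2 of 18 and 1 of 21, beside 3.58% and 1.81%. The E-box letters CACGTG were found in 1 of 18 and 5 of 21 (8.46% and 5.79%), the ETS letters CCGGAAG in 1 of 18 and 4 of 21 (16.7% and 7.74%), and the NRF1 motif in 0 of 18 and 2 of 21 (1.89% and 0.849%). No matches of different motifs overlapped in these genes. The shares are descriptions of letters in a window, on few genes.

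With PTUPB before PDGF-BB, most of the scaffold genes, Ran, Rcc1 and 4 carriers were lower than with PDGF-BB alone, and Xpot was higher. Of the 47 genes 17 fell and 1 rose. These are 36.2% and 2.1% of the 47, whereas 10.0% of all tested genes were called lower and 8.28% higher (edgeR, adjusted p under 0.05), and the median log2 fold change was -0.153 over the 47 and 0.006 over all genes. This comparison shares its PDGF-BB libraries with the preceding one, so the values are given side by side and not as separate evidence. Without Control replicate 2 and PDGF-BB replicate 3, 23 were lower and 1 higher, beside 12.9% and 12.3% of all genes. Without PDGF-BB+PTUPB replicate 1, 11 of the 47 were lower, and over all genes 540 were lower in place of 1121. With scaling to library totals alone, 759 genes were higher and 1414 lower, in place of 927 and 1121, and 1 and 18 of the 47 were called.

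Aaas fell by 0.82 on the log2 scale with an SE of 0.08, to 0.568 of its PDGF-BB level, with the smallest adjusted p of the 47 (edgeR adjusted p = 0.000562). Ran fell by 0.78 with an SE of 0.10 (edgeR adjusted p = 0.00132), its PDGF-BB+PTUPB libraries reaching at most 276 FPKM and its PDGF-BB libraries at least 401. In the Y complex Nup133 fell by 0.69 with an SE of 0.10 (edgeR adjusted p = 0.00197), and Nup107, Nup43 and Nup85 also fell. Nup160 and Nup37 had log2 fold changes of -0.30 ± 0.15 and -0.24 ± 0.11 and did not pass the test (edgeR adjusted p = 0.212 and 0.157), but did without Control replicate 2 and PDGF-BB replicate 3 (-0.43 and -0.30, edgeR adjusted p = 0.0406 and 0.0258). Ndc1 fell by 0.65 with an SE of 0.11 and Nup88 by 0.50 with an SE of 0.08 (edgeR adjusted p = 0.00445 and 0.00377). The inner ring genes Nup93, Nup205, Nup155 and Nup35 fell by 0.47 to 0.61, while Nup188 was at -0.12 ± 0.09. No channel or basket gene passed the test, Nup62 being at -0.19 ± 0.09 (edgeR adjusted p = 0.165). The values of Tpr and Ranbp2, at 0.13 and 0.21, turned to -0.21 and -0.13 without PDGF-BB replicate 3, and neither was called.

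Of the carriers, Ipo5 fell by 0.46 with an SE of 0.07 and Kpnb1 by 0.44 with an SE of 0.09 (edgeR adjusted p = 0.0035 and 0.00785), and Rcc1 fell by 0.44 with an SE of 0.09 (edgeR adjusted p = 0.00972). Kpna2 fell by 0.59 with an SE of 0.14 (edgeR adjusted p = 0.0148), a call lost without PDGF-BB replicate 1 or PDGF-BB+PTUPB replicate 1 or 3 (edgeR adjusted p = 0.0508 to 0.0626). Xpo1 fell by 0.49 with an SE of 0.12 (edgeR adjusted p = 0.0204), a call lost without PDGF-BB replicate 1 or 2 or any PDGF-BB+PTUPB replicate (edgeR adjusted p = 0.0624 to 0.072). Xpot rose by 0.37 ± 0.09 (edgeR adjusted p = 0.0164), a call lost without PDGF-BB replicate 1 or PDGF-BB+PTUPB replicate 2 or 3 (edgeR adjusted p = 0.0553 to 0.0618). All of these kept apart in their libraries: the PDGF-BB+PTUPB values of Kpna2 and Xpo1 lay below, and those of Xpot above, every PDGF-BB value. Cse1l, at -0.24 ± 0.15, did not pass the test (edgeR adjusted p = 0.316) and did without Control replicate 2 and PDGF-BB replicate 3 (-0.38, edgeR adjusted p = 0.00419).

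Several scaffold calls with PTUPB were lost when a single library was left out, at fold changes close to those of the full fit. Nup43, at -0.74 in the full fit, was lost without PDGF-BB+PTUPB replicate 1 or 3 (-0.64 and -0.70, edgeR adjusted p = 0.0668 and 0.0504). Nup35, at -0.51, was lost without PDGF-BB replicate 1 or PDGF-BB+PTUPB replicate 1 (-0.45 and -0.47, edgeR adjusted p = 0.0525 and 0.0615). Nup205, a large inner ring protein at -0.61, was lost without PDGF-BB replicate 2 or any PDGF-BB+PTUPB replicate (-0.65 to -0.59, edgeR adjusted p = 0.0518 to 0.075). Nup155, at -0.47, was lost without Control replicate 3, PDGF-BB replicate 1 or 2, or any PDGF-BB+PTUPB replicate (-0.51 to -0.44, edgeR adjusted p = 0.0579 to 0.119), and with the replicate block. Ipo4 was gained without Control replicate 2 and Xpo4 without PDGF-BB replicate 3 (-0.25 and -0.35, edgeR adjusted p = 0.0446 and 0.0477). With both of those libraries left out, Ipo4, Xpo4 and Kpna3 were called lower (-0.18, -0.35 and -0.26, edgeR adjusted p = 0.0442, 0.0186 and 0.0464).

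**Figure D4:**
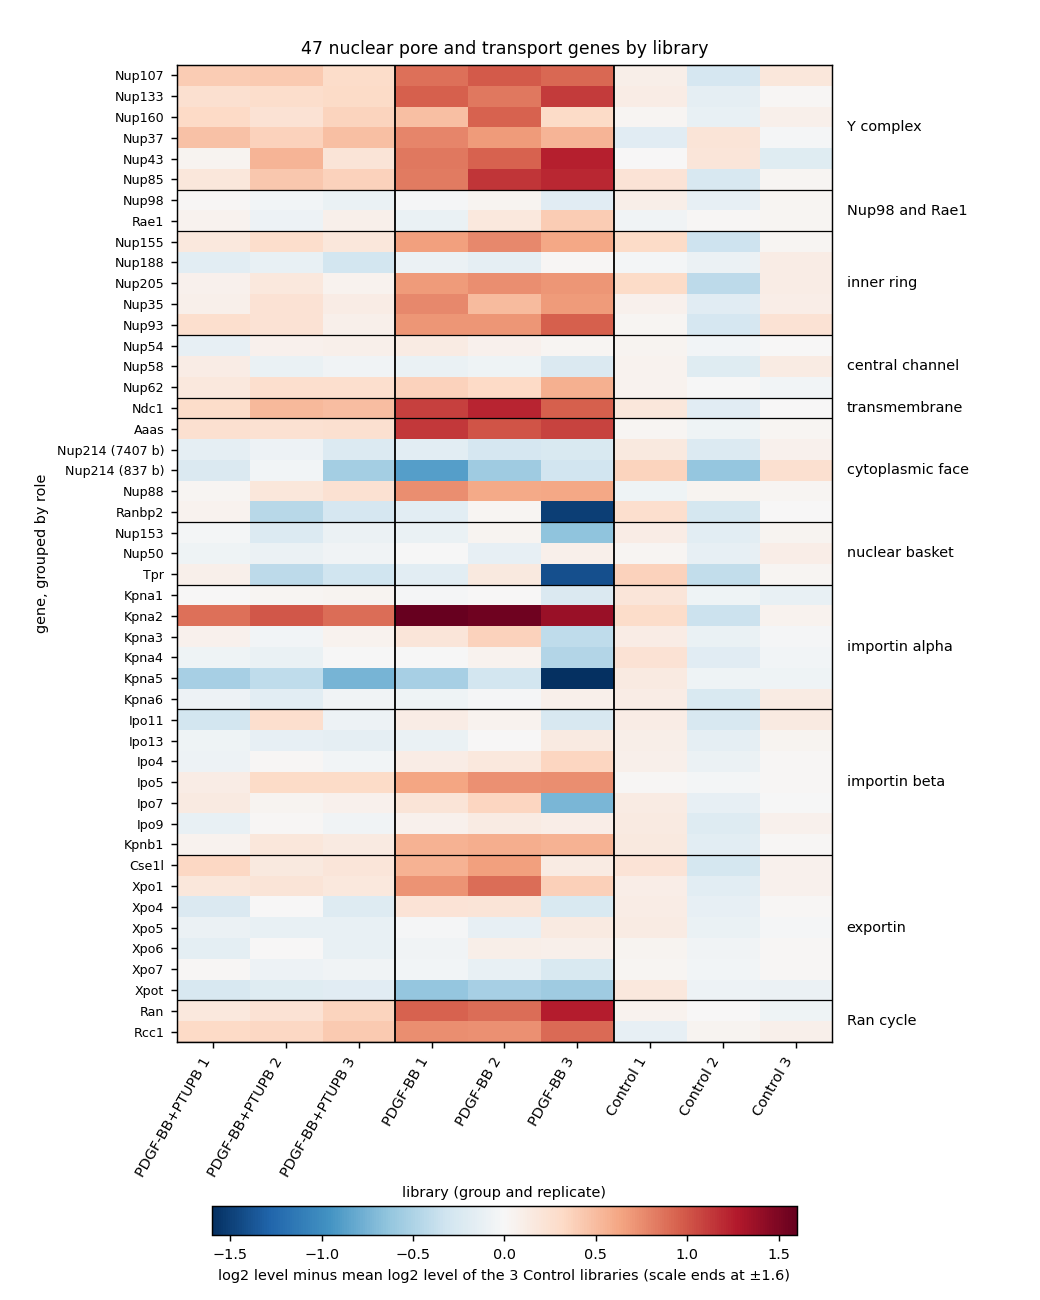
Log2 level of the 47 genes (down the page, by role) in each library (across), minus the mean log2 level of the 3 Control libraries. The PDGF-BB columns are red for the Y complex, 4 inner ring genes, Ndc1, Aaas, Nup88, Kpna2, Ran and Rcc1, the PDGF-BB+PTUPB columns are paler for these genes, and PDGF-BB replicate 3 is blue for Ranbp2, Tpr and Kpna5.

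Set against Control, cells given PTUPB and PDGF-BB differed in 1 of the 47 genes: Kpna2 rose by 0.90 ± 0.14 on the log2 scale (1.87-fold, edgeR adjusted p = 0.00755), with its lowest PDGF-BB+PTUPB library at 63.8 FPKM and its highest Control library at 42.2. That is 2.1% of the 47 called higher and 0 called lower, whereas 1.89% and 0.313% of all tested genes were (2.21% in either direction), so the share is near the background. The median log2 fold change was 0.021 over the 47 and -0.01 over all genes. LOC100359600, the Kpna2-like gene, was also higher (0.74 ± 0.16, edgeR adjusted p = 0.0438). Ndc1, at 0.43 ± 0.11, Rcc1, at 0.35 ± 0.09, Aaas, at 0.25 ± 0.08, and Ran, at 0.25 ± 0.10, did not pass the test (edgeR adjusted p = 0.101 to 0.303). The 6 genes assigned here to the Y complex were at 0.27 to 0.42, with none called. Of all 47 genes, 26 were above 0 and 21 below. Xpot was at -0.21 ± 0.08 (edgeR adjusted p = 0.306).

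The comparison of PDGF-BB+PTUPB with Control depended on the libraries that stood apart. Without Control replicate 2 and PDGF-BB replicate 3, 5 of the 47 were higher and 1 lower, beside 5.81% and 6.21% of all genes. The 5 were Kpna2 (0.75, edgeR adjusted p = 0.000753), Nup37 (0.53, 0.0057), Rcc1 (0.37, 0.0273), Ndc1 (0.34, 0.0394) and Ran (0.26, 0.0379), and Kpna6 was lower (-0.23, 0.0336). Nup37 was called without Control replicate 2 alone as well (0.53, edgeR adjusted p = 0.0301).

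Genes of the same pathway outside the symbol rule were read from 5 further lists, whose counts stand beside 17.3% of all tested genes called higher and 15.8% lower with PDGF-BB, and 8.28% higher and 10.0% lower with PTUPB against PDGF-BB. The pore list holds 7 tested genes of pore proteins and pore-associated proteins that the rule does not name. Of these, 2 rose with PDGF-BB, the spindle checkpoint protein Mad1l1 (1.13 ± 0.18, edgeR adjusted p = 0.0012) and Sec13. No other gene of this list was called in that comparison. Sec13 fell with PTUPB against PDGF-BB alone, by 0.46 with an SE of 0.09 (edgeR adjusted p = 0.00658). Of 13 transportin and Ran cycle genes, 4 rose with PDGF-BB: Rangap1, the GTPase activator of Ran (1.40 ± 0.16, edgeR adjusted p = 0.000169), Ranbp1, its cofactor (0.83 ± 0.10), Nutf2, the import carrier of Ran (0.37) and Tnpo2 (0.24). Rangap1 and Ranbp1 fell with PTUPB, by 0.85 and 0.77 (edgeR adjusted p = 0.00639 and 0.00162). The list medians were 0.08 and 0.12 with PDGF-BB and -0.05 and -0.09 with PTUPB.

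Of 17 mRNA export genes, 6 rose with PDGF-BB, led by the helicase Ddx39a (1.20 ± 0.11, edgeR adjusted p = 5.72e-05) and including Thoc7, Nxt1 and Alyref (0.59, 0.74 and 0.88), and Mcm3ap fell by 0.28. With PTUPB 4 of the 17 fell, Ddx39a by 1.16. Of 17 lamina and envelope genes, 7 rose and 2 fell with PDGF-BB. Lmnb1, which encodes lamin B1, rose by 1.96 ± 0.16 (edgeR adjusted p = 2.21e-05), Tmpo by 1.04, Lmna by 1.00 and Banf1, which tethers chromatin to the envelope, by 0.81, while Lemd3 fell by 0.28 and Tor1aip1 by 0.29, calls lost with Control replicate 2 and PDGF-BB replicate 3 left out (-0.24 and -0.27, edgeR adjusted p = 0.0757 and 0.0896). With PTUPB 5 of these 17 fell, and 3 were above Control with PTUPB: Lmnb1 (1.08 ± 0.16, edgeR adjusted p = 0.00588), Tmpo (0.54, 0.0278) and Banf1 (0.38, 0.0401). Among 13 genes of the SUMO cycle, which modifies Rangap1 at the pore, the activating enzyme subunit Sae1 rose with PDGF-BB (0.67 ± 0.09) and fell with PTUPB, by 0.49. The medians of these 3 lists were 0.06, 0.12 and 0.11 with PDGF-BB and -0.05, -0.13 and -0.08 with PTUPB. Outside the lamina list, no gene of these lists was called with PTUPB against Control, but without the same 2 libraries Rangap1 and Nxt1 were higher (0.36 and 0.55, edgeR adjusted p = 0.0263 and 0.0235). In that setting 18.6% of all tested genes were higher and 19.5% lower with PDGF-BB against Control. The genes higher and lower were 2 and 1 of the pore list, 4 and 0 of the transportin and Ran cycle list, 6 and 2 of the mRNA export list, 7 and 1 of the lamina list and 2 and 0 of the SUMO list. With PTUPB against PDGF-BB those lower were 2, 3, 5, 5 and 2 in the same order, beside 12.9% of all tested genes. Mad1l1 was among them (-0.61, edgeR adjusted p = 0.0093).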

How the data were processed

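Poly(A) RNA of 9 libraries was sequenced paired-end, per the labels. Per the submitters' processing notes, the tools were cutadapt 1.9.1, HISAT2 2.0.1 and HTSeq 0.6.1 and the build mm10, a mouse build, although all 32623 identifiers are rat Ensembl identifiers, so the table gave no usable coordinates. The strand used for counting is not given in the sources used here. The deposited table holds expected counts (not whole in 978 genes, for reasons not given) and FPKM by the authors. Recomputing FPKM from these counts and the exonic lengths matched 100% of the deposited values to within 0.006.

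Counts were rounded and fitted with edgeR 4.0.16 (TMM scaling, two-sided quasi-likelihood F test, no covariate beside group, 1 fit over the 9 libraries, 6 residual degrees of freedom, biological coefficient of variation 0.137) in R 4.3.3. Genes with FPKM of at least 1 in at least 3 libraries were tested, and calls were Benjamini-Hochberg adjusted p under 0.05 over all 11197 genes. Levels are FPKM recomputed from counts with TMM factors, and 3 counts correspond to 0.177 to 0.236 CPM. Intervals of fold changes are 95% intervals of the fit, and the floors of 3 counts cover counting error only. The fit was tested on simulated counts. The members, the role groups and the other gene lists were chosen with earlier results of these data known. Values in every library are given for the 6 called members with the smallest p in each direction of each comparison and for Kpna2, Kpnb1, Ran, Rcc1, Xpo1, Cse1l, Nup62, Nup107, Nup210, Tpr, Ranbp2 and Aaas, and up to 4 called genes in each other list are named by smallest p. Of the genes this rule names, 1 is not reported here. Alternatives covered scaling, filters, DESeq2 1.42.0, limma 3.58.1 on log2 FPKM, an exonic length offset, a replicate block, only the groups compared, and each library left out.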

Additional observations from a re-analysis of the deposited data

How the results depend on the processing

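Over all alternatives the median log2 fold change of the 47 genes was 0.06 to 0.22 with PDGF-BB against Control, -0.22 to -0.14 with PDGF-BB+PTUPB against PDGF-BB and -0.01 to 0.08 with PDGF-BB+PTUPB against Control. Of the genes whose libraries are given, Cse1l (PDGF-BB against Control) and Kpna2, Xpo1 and Xpot (PDGF-BB+PTUPB against PDGF-BB) lost a call in at least 1 alternative, and Cse1l (PDGF-BB+PTUPB against PDGF-BB), Ndc1, Ran and Rcc1 (PDGF-BB+PTUPB against Control) gained one with Control replicate 2 and PDGF-BB replicate 3 both left out, Ndc1 also with DESeq2 and with the exonic length offset. Leaving out each library in turn, PDGF-BB against Control gave 20 to 23 members higher and 1 to 3 lower. PDGF-BB+PTUPB against PDGF-BB gave 0 to 1 higher and 11 to 18 lower, with 1002 to 2463 genes called in all. PDGF-BB+PTUPB against Control gave 1 to 2 members higher and 93 to 340 genes called in all. With Control replicate 2 and PDGF-BB replicate 3 both left out, 3 members were lower with PDGF-BB against Control, both rows of Nup214 among them. In that setting 5 members were higher and 1 lower with PDGF-BB+PTUPB against Control, with 1345 genes called in place of 247. In that last comparison DESeq2 gave 3 members higher and 444 genes called, and the exonic length offset gave 2 members higher, as it did with the replicate block. With PDGF-BB+PTUPB against PDGF-BB, neither Ranbp2 nor Tpr was called in any setting. Leaving out 1 library at a time, Ranbp2 ranged from -0.13 (without PDGF-BB replicate 3) to 0.47 (without PDGF-BB replicate 2) and Tpr from -0.21 to 0.43 (the same libraries, with -0.04 without PDGF-BB+PTUPB replicate 1), and with both libraries out they stood at -0.14 and -0.21. The cause was not tested. Deviations of same-numbered libraries correlated at -0.238 to 0.177, and those of differently numbered libraries at -0.231 to 0.231. These deviations also hold the trend with exonic length, so they cannot tell whether the numbers pair the samples. With the replicate block 20 members were higher and 1 lower with PDGF-BB, 1 higher and 16 lower with PTUPB against PDGF-BB, and 1 higher with PTUPB against Control, with 3294, 1602 and 168 genes called. Genes at the level of Kpna5 or Nup210 rest on few counts.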
